A study of Mus musculus with 2 samples.

Results

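The collagen genes were followed in mouse fibroblasts and in muscle progenitor cultures made from fibroblasts. Members were all rows whose symbol has the form Col, a number, the letter a and a number. The rule gave 44 of the 26100 genes listed in both count matrices, and they encode chains of 27 collagen types. Cells of 2 single-cell RNA libraries were measured with the 10x Genomics droplet assay, which reads RNA near its 3′ end and tags every captured molecule with its own barcode, the unique molecular identifier or UMI. In the MEF library are mouse embryonic fibroblasts in fibroblast medium. The iMPC library holds induced myogenic progenitor cells, made from such fibroblasts with MyoD plus F/R/C and kept in F/R/C medium, where F/R/C is an abbreviation that the labels leave unexplained. Both have the genotype Tg:Pax7-nGFP/C57BL6;DBA2, and the series' design text calls the iMPC culture a stable clone. Each group is 1 library, so no difference has a replicate check, none was tested, and a library effect cannot be told apart from the cell state.

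Collagens are trimeric proteins of the extracellular matrix whose chains wind into a triple helix built on repeats that start with glycine. Fibrillar collagens such as types I, III and V form the tensile fibrils of connective tissue. Types IV, XV and XVIII belong to basement membranes, type VI forms beaded filaments around cells, and types XIII, XXIII and XXV cross the plasma membrane. In muscle, each fibre and its satellite stem cell lie within a basement membrane rich in type IV, and interstitial fibroblasts make most of the fibrillar collagen.

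All 6043 MEF cells with at most 20% mitochondrial UMIs were used, with a median of 18929 UMIs. The 9349 iMPC cells with at least 8036 UMIs and the same mitochondrial limit had a median of 20846 UMIs. A further 4 sets were taken from the iMPC cells by marker counts. The Pax7 set (2180 cells, at least 1 UMI of the satellite cell factor Pax7 and 0 of Myog) stands for progenitors. The Myog set (1724 cells, at least 5 UMIs of the differentiation factor Myog and at most 1 of Ckm) and the Ckm set (1037 cells, at least 5 UMIs of muscle creatine kinase) hold later muscle stages. The Dcn set (553 cells) holds cells with at least 5 UMIs of decorin, a fibroblast proteoglycan, and 4001 cells fell in no set. The Dcn set shares 110 cells with the Pax7 set and 18 with each of the other sets. The libraries share 16 cell barcodes. The median UMIs per cell were 18729.5 in the Pax7 set, 23857.5 in the Myog set, 42148 in the Ckm set and 18064 in the Dcn set. Levels are given as CPM, the UMIs of a gene over all UMIs of a set scaled to 1e6. Each captured RNA molecule gives 1 UMI whatever its length. How well the RNA of each gene is captured was not measured, so comparisons between different genes are of UMIs only. Ratios are log2 of CPM with exact 95% intervals that cover counting error only.

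Marker lists describe the sets. The myocyte list holds Ckm, the committed myoblast list Myog and the satellite cell list Pax7, so their levels in the sets cut by these genes are partly fixed by the choice of cells. The fibroblast list does not hold Dcn. All 7 fibroblast markers listed (Thy1, Pdgfra, Twist2, Lum, Prrx1, Fbln2 and Postn) reached 5 CPM in MEF cells, all iMPC cells and the Dcn set. In the Pax7 set 6 did. Their summed levels were 2153 CPM in MEF cells, 1588 CPM in the Dcn set, 690 CPM in the Pax7 set, 197 CPM in the Myog set and 140 CPM in the Ckm set. Not every marker followed the sums. Fbln2 was lower in the Dcn set (39.6 CPM) than in the Pax7 set (52.3 CPM). Prrx1 was lower in MEF cells (227 CPM) than in the Pax7 set (407 CPM). The 6 myocyte markers summed to 2.998 CPM in MEF cells, 31613 CPM in the Ckm set and 2914 CPM in the Dcn set. Smooth muscle markers summed to 9895 CPM in MEF cells and to between 436 and 868 CPM in the 4 iMPC sets. Endothelial markers summed to at most 0.657 CPM and immune markers to at most 3.68 CPM in every set. The part of these differences in the collagen levels was not tested.

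The reading frames show what sets the fibrillar chains apart, and 4 stretches are printed for comparison. In the longest annotated coding transcript of each gene (GENCODE M21), the longest unbroken series of triplets that each start with a glycine codon (GGN) ran over 216 to 344 triplets in the 11 fibrillar members, and over 23 to 113 triplets in the other 33. Col1a1 had 338 such triplets, Col3a1 had 344, Col4a1 had 40 and Col18a1 had 30. The first 90 bases of each series follow, with the glycine codon that opens each triplet in capitals.
Col1a1: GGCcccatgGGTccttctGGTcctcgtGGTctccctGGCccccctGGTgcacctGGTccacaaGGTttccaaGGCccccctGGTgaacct
Col3a1: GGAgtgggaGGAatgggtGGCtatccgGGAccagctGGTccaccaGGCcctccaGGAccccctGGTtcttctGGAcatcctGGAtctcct
Col4a1: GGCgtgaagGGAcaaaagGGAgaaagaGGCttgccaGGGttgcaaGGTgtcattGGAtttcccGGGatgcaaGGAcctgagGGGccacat
Col18a1: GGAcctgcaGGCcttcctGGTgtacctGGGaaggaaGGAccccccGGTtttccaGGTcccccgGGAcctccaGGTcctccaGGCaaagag

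Promoters are shown for 5 members with contrasting patterns. RefSeq promoter windows (GRCm38.p6) were matched for 35 members, with 38 windows in all. Not matched were Col1a1, Col2a1, Col5a2, Col4a3, Col9a3, Col12a1, Col14a1, Col22a1 and Col26a1. The 250 bases before each start were searched on both strands. TATAAA was found in 5 of 38 windows (13.2%, against 12.4% of all 32851 windows), CCAAT in 13 (34.2% against 33.8%) and CAGCTG, an E-box that muscle regulators can bind, in 6 (15.8% against 13.0%). None of the 3 motifs contains another. The 150 bases before the start are printed 5′ to 3′ on the gene's strand, with these motifs in capitals. They are Col1a2 (chr6:4505468-4505617, plus strand) and Col3a1 (chr1:45311388-45311537, plus strand) of the fibrils, Col5a3 (chr9:20815068-20815217, minus strand), and Col19a1 (chr1:24587438-24587587, minus strand) and Col25a1 (chr3:130180695-130180844, plus strand), which were highest in muscle cell sets.
Col1a2: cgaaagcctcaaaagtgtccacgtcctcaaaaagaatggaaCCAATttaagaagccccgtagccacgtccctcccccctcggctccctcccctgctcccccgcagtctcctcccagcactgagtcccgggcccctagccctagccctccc
Col3a1: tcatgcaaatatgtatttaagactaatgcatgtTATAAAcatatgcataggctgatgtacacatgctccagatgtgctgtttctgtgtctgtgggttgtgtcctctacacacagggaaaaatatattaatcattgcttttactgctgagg
Col5a3: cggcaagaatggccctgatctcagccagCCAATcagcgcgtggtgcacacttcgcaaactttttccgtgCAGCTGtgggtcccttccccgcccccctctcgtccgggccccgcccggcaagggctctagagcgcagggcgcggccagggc
Col19a1: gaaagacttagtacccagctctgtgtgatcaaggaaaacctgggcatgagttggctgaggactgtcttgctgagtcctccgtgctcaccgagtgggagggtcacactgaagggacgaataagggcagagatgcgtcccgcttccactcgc
Col25a1: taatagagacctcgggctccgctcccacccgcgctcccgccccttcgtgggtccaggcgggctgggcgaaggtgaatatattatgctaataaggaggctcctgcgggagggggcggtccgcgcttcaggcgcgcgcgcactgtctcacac
A motif match describes these letters only. The Col25a1 window also has a CCAAT match, which lies among the 250 bases searched but upstream of the 150 printed. The RefSeq start used for Col25a1 lies inside the gene's annotated span, which begins at base 130131501. The starts used for Col1a2 and Col19a1 also lie inside their annotated spans, but nearer the edge.

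Collagen RNA as a whole was most abundant in the Dcn set and least in the Ckm set. The 44 genes summed to 7940 CPM in MEF cells, 3661 CPM in the Pax7 set, 914 CPM in the Myog set, 512 CPM in the Ckm set and 11292 CPM in the Dcn set. The level in all iMPC cells was 2639 CPM, a log2 ratio to MEF cells of -1.59 (-1.59 to -1.58), or 3.01-fold lower. Against MEF cells the Pax7 set was 2.17-fold lower and the Dcn set 1.42-fold higher. Within the iMPC library, the Myog set was 4.004-fold and the Ckm set 7.16-fold lower than the Pax7 set. The order held cell by cell as medians: 7478 CPM of a cell's own UMIs in MEF cells (5th to 95th percentile 987 to 15378), 2571 in the Pax7 set (866 to 11158), 556 in the Myog set (101 to 2279), 221 in the Ckm set (56.2 to 1617) and 10551 in the Dcn set (3475 to 23975). The percentile ranges of the Pax7 set and of MEF cells overlapped widely, while those of the Ckm set and the Dcn set did not. For the Ckm set, removing called doublets lowered the log2 ratio to the Pax7 set from -2.84 to -3.58. Subtracting the profile of the smallest barcodes, taken here as free RNA, lowered that ratio to -3.67.

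**Figure D1:**
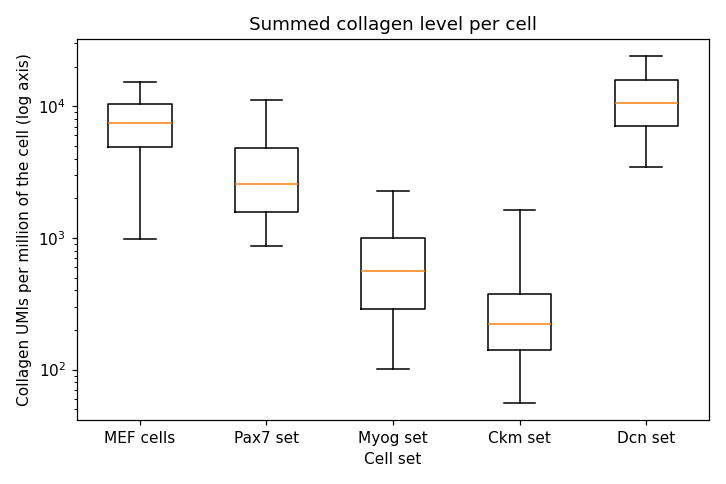
Summed collagen CPM of each cell, from its own UMIs (log axis), in MEF cells and 4 iMPC cell sets; boxes show the 25th to 75th percentile, the line the median, whiskers the 5th and 95th percentile. Medians run from 221 in the Ckm set to 10551 in the Dcn set.

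The mix of collagens also differed between the sets. Fibrillar chains made up 73.9% of collagen UMIs in MEF cells, 42.8% in the Pax7 set, 35.0% in the Myog set, 32.2% in the Ckm set and 40.6% in the Dcn set. The chains that carry an endostatin domain, Col15a1 and Col18a1, made up 0.51% in MEF cells but 16.4% in the Pax7 set and 19.9% in the Myog set. The share of type VI was 8.62% in MEF cells and 29.1% in the Dcn set. Transmembrane collagens held 0.0796% of collagen UMIs in MEF cells and 10.3% in the Ckm set, where the total was lowest.

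**Figure D2:**
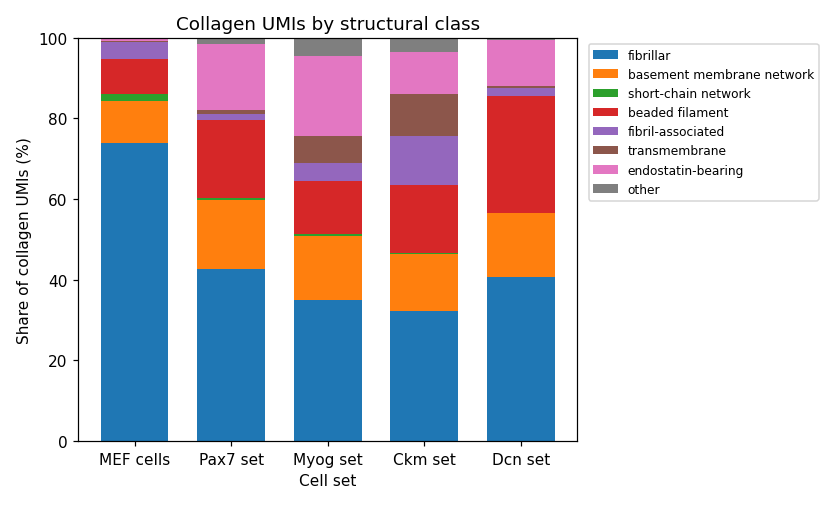
Share of all collagen UMIs (%) by structural class in MEF cells and 4 iMPC cell sets. The fibrillar share is 73.9% in MEF cells and between 32.2% and 42.8% in the iMPC sets.

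Between all iMPC cells and MEF cells, 25 members had at least 5 CPM on one side. Of these, 7 (28.0%) were at least 2-fold higher in iMPC cells, where 15.5% of all 10277 genes at that level were, and 11 (44.0%) were at least 2-fold lower, against 21.9% of all genes. Their median log2 ratio was -0.81, against -0.17 over all genes. The 7 higher members were Col5a3, Col13a1, Col15a1, Col18a1, Col19a1, Col25a1 and Col26a1. The same 7 were higher in the Pax7 set, where 15.8% of genes were higher and 19.9% lower than in MEF cells, and 10 members (40.0%) were lower there. In the Dcn set against MEF cells, 15 of 26 members (57.7%) were higher, against 14.3% of genes, and 6 (23.1%) lower, against 13.4%. The MEF cells here were not picked by Dcn, and 2179 of them (36.1%) held at least 5 Dcn UMIs. A comparison with those cells alone is given below for type I.

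**Figure D3:**
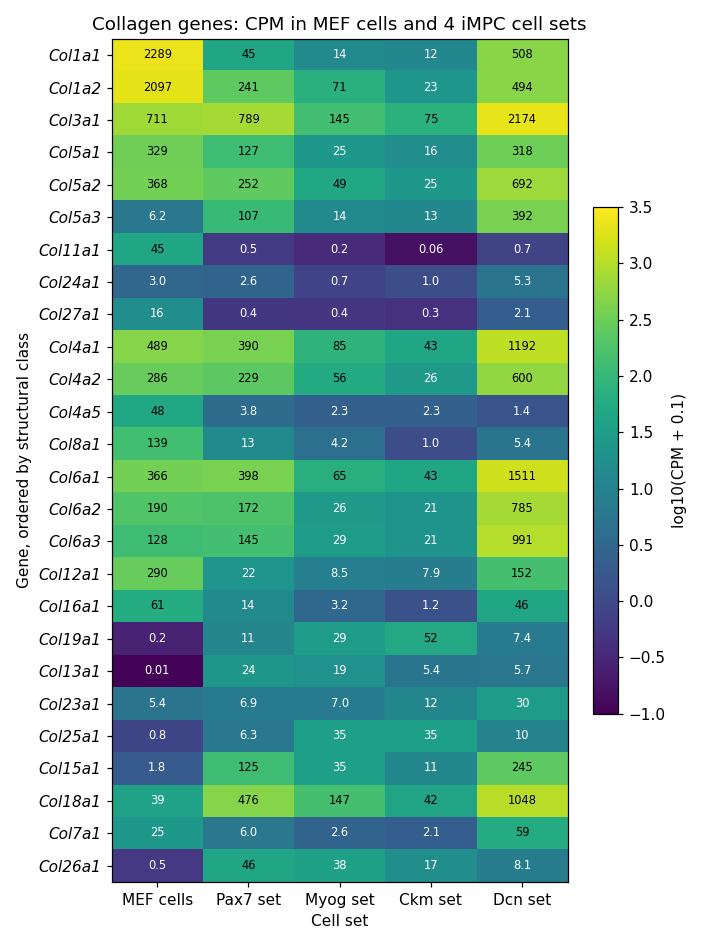
CPM of the 26 collagen genes with at least 5 CPM in some set, in MEF cells and 4 iMPC cell sets; colour gives log10(CPM + 0.1) and the printed number the CPM. Col1a1 and Col1a2 are highest in MEF cells, many others in the Dcn set, and Col19a1 in the Ckm set.

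Type I collagen, the main fibril protein of skin, tendon and bone, was the collagen that differed most in amount between fibroblasts and the iMPC library. Col1a1 (ENSMUSG00000001506, GRCm38 chr11:94936224-94953042) stood at 2289 CPM in MEF cells, 45.0 CPM in the Pax7 set, 13.8 CPM in the Myog set, 12.4 CPM in the Ckm set and 508 CPM in the Dcn set. Its Pax7 set level was 50.8-fold below MEF cells (log2 ratio -5.67, -5.73 to -5.60), and the log2 ratio was -6.31 with sets kept apart and -6.79 with the free RNA of the smallest barcodes subtracted. Col1a2 (chr6:4504814-4541544), which supplies the second chain of the trimer, stood at 2097, 241, 70.9, 22.9 and 494 CPM in the same order, and its Pax7 set level was 8.69-fold below MEF cells (log2 ratio -3.12, -3.15 to -3.09). Even in the Dcn set both chains were lower than in MEF cells, with log2 ratios of -2.17 and -2.09. They were also lower, at -2.22 and -2.20, when only MEF cells with at least 5 Dcn UMIs were compared.

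The ratio of the 2 type I chains differed between the sets. Type I protein usually holds more α1 than α2 chains. The UMI ratio of Col1a1 to Col1a2 was 1.09 (1.09 to 1.10) in MEF cells and 1.03 (0.994 to 1.07) in the Dcn set, but 0.187 (0.178 to 0.196) in the Pax7 set and 0.195 (0.179 to 0.212) in the Myog set. In the Ckm set it was 0.542 (0.490 to 0.599), and it ran from 0.262 to 0.977 over the alternatives. Over alternative cell choices, summing and free RNA subtraction the Pax7 set ratio ran from 0.0866 to 0.188 and that of the Dcn set from 0.9499 to 1.17. Col4a1 to Col4a2 lay between 1.52 and 1.99 and Col6a1 to Col6a2 between 1.92 and 2.46 in all 5 sets. Other pairs differed between MEF cells and the Pax7 set, with 0.893 and 0.504 for Col5a1 to Col5a2 and 21.04 and 3.80 for Col18a1 to Col15a1.

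Col1a1 in the iMPC library came from few cells. After each cell was thinned to 5000 UMIs, a Col1a1 UMI was found in 94.6% of MEF cells (5759 cells; 284 shallower cells left out), 7.98% of the Pax7 set, 1.91% of the Myog set, 1.64% of the Ckm set and 45.0% of the Dcn set. The Myog set (1.32% to 2.68%) and the Ckm set (0.958% to 2.61%) gave the lowest shares, with overlapping 95% intervals. Without thinning the shares were 95.2%, 14.9%, 5.86%, 8.39% and 61.5%, with the Ckm set above the Myog set. The 5% of iMPC cells with most Col1a1 held 90.1% of its thinned UMIs, against 14.7% for MEF cells, while the same share for Col4a1 was 38.2% in iMPC and 18.8% in MEF cells. At least 10 Col1a1 UMIs were found in 113 iMPC cells (1.21%) and in 2908 MEF cells (50.5%). Of the thinned Col1a1 UMIs of iMPC cells, 33.6% lay in the Dcn set and 53.8% in cells of no set. Within the Dcn set the median was 0 and the 95th percentile 11 thinned UMIs, so Col1a1 was spread unevenly over these cells. Across cells, the rank correlation of Col1a1 with Col1a2 was 0.667 in MEF cells, 0.458 in the Dcn set and 0.190 in the Pax7 set, where low counts limit it.

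Type III collagen, which mixes with type I in soft tissue, behaved differently from type I. Col3a1 (chr1:45311538-45349706) stood at 711 CPM in MEF cells, 789 CPM in the Pax7 set, 145 CPM in the Myog set, 74.8 CPM in the Ckm set and 2174 CPM in the Dcn set. The Pax7 set and MEF cells were within 1.11-fold, and the sign of that log2 ratio (0.15) turned under stricter sets (-0.05) and with sets kept apart (-0.06). The Dcn set was 3.06-fold above MEF cells. Set against Col1a1, Col3a1 gave a UMI ratio of 0.311 in MEF cells, 17.5 in the Pax7 set (17.2 to 40.4 over the alternatives) and 4.28 in the Dcn set, so the order of the 2 chief fibril genes was opposite in the 2 libraries. A Col3a1 UMI was found at 5000 UMIs in 83.5% of the Pax7 set and 81.7% of MEF cells.

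Type V, which starts and limits fibril growth, changed in chain makeup. Col5a3 (chr9:20770050-20815067), a less common chain of the type, stood at 6.24 CPM in MEF cells, 107 CPM in the Pax7 set, 14.3 CPM in the Myog set, 12.6 CPM in the Ckm set and 392 CPM in the Dcn set. It was 17.1-fold higher in the Pax7 set (log2 ratio 4.10, 3.99 to 4.21) and 62.8-fold higher in the Dcn set than in MEF cells. Col5a1 was 329 CPM in MEF cells, 127 CPM in the Pax7 set and 318 CPM in the Dcn set. The ratio of Col5a3 to Col5a1 was thus 0.0190 in MEF cells, 0.842 in the Pax7 set and 1.23 in the Dcn set. Col5a2 stood at 368, 252 and 692 CPM in the same 3 sets, so Col5a3 was the lowest of the 3 type V genes in MEF cells and the Pax7 set, and Col5a1 was in the Dcn set. Col11a1, a cartilage fibril chain related to type V, was 44.9 CPM in MEF cells and at most 0.74 CPM in the 4 iMPC sets. Its level in all iMPC cells was 90.9-fold below MEF cells (log2 ratio -6.51, and -7.25 with free RNA subtracted). Col27a1 was 16.3 CPM in MEF cells and between 0.35 and 2.14 CPM in the 4 sets, and Col24a1 reached 5.26 CPM only in the Dcn set.

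Of the basement membrane chains, Col4a1 and Col4a2 stood closer to the MEF level in the Pax7 set than the type I chains did. Col4a1 (chr8:11198423-11312826) stood at 489 CPM in MEF cells, 390 CPM in the Pax7 set, 84.6 CPM in the Myog set, 43.2 CPM in the Ckm set and 1192 CPM in the Dcn set. Col4a2 stood at 286, 229, 55.7, 26.0 and 600 CPM in the same order. Both were 1.25-fold below MEF cells in the Pax7 set. Col4a5, part of a more specialised type IV network, was 47.7 CPM in MEF cells but 3.77, 2.34, 2.32 and 1.40 CPM in the Pax7, Myog, Ckm and Dcn sets. Col8a1, a short-chain network collagen of vessel walls and other sites, was 139 CPM in MEF cells, 13.4 CPM in the Pax7 set and 5.42 CPM in the Dcn set. These 2 were among the 6 members lower in the Dcn set than in MEF cells.

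Col18a1 and Col15a1, whose ends can be released as endostatin and a related fragment, were higher in the Pax7, Myog and Dcn sets than in MEF cells. Col18a1 (chr10:77052178-77166548) stood at 38.7 CPM in MEF cells, 476 CPM in the Pax7 set, 147 CPM in the Myog set, 41.9 CPM in the Ckm set and 1048 CPM in the Dcn set. Col15a1 (chr4:47208161-47313167) stood at 1.84, 125, 34.6, 11.3 and 245 CPM in the same order. In the Pax7 set the log2 ratios to MEF cells were 3.62 (3.57 to 3.67) for Col18a1 and 6.09 (5.89 to 6.29) for Col15a1. At 5000 UMIs per cell, Col18a1 was found in 78.3% of the Pax7 set, 96.7% of the Dcn set, 11.7% of the Ckm set and 13.9% of MEF cells, so the Ckm set did not lie above MEF cells in this share. It was thus among the most widely detected collagens of the progenitors, behind Col3a1 at 83.5%.

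Type VI, a filament collagen that surrounds muscle fibres and is mutated in a muscular dystrophy, was the type with most UMIs in the Dcn set. Its genes summed to 684 CPM in MEF cells, 716 CPM in the Pax7 set, 121 CPM in the Myog set, 85.8 CPM in the Ckm set and 3288 CPM in the Dcn set. Col6a1 was 366, 398 and 1511 CPM in MEF cells, the Pax7 set and the Dcn set. Col6a2 was 190, 172 and 785 CPM there, and Col6a3 128, 145 and 991 CPM. The Pax7 set was within 1.13-fold of MEF cells for each chain, and these small ratios changed sign under at least 1 alternative. The Dcn set was 7.77-fold above MEF cells for Col6a3 (log2 ratio 2.96, 2.92 to 2.99). At 5000 UMIs, Col6a1 was found in 98.0% of the Dcn set.

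**Figure D4:**
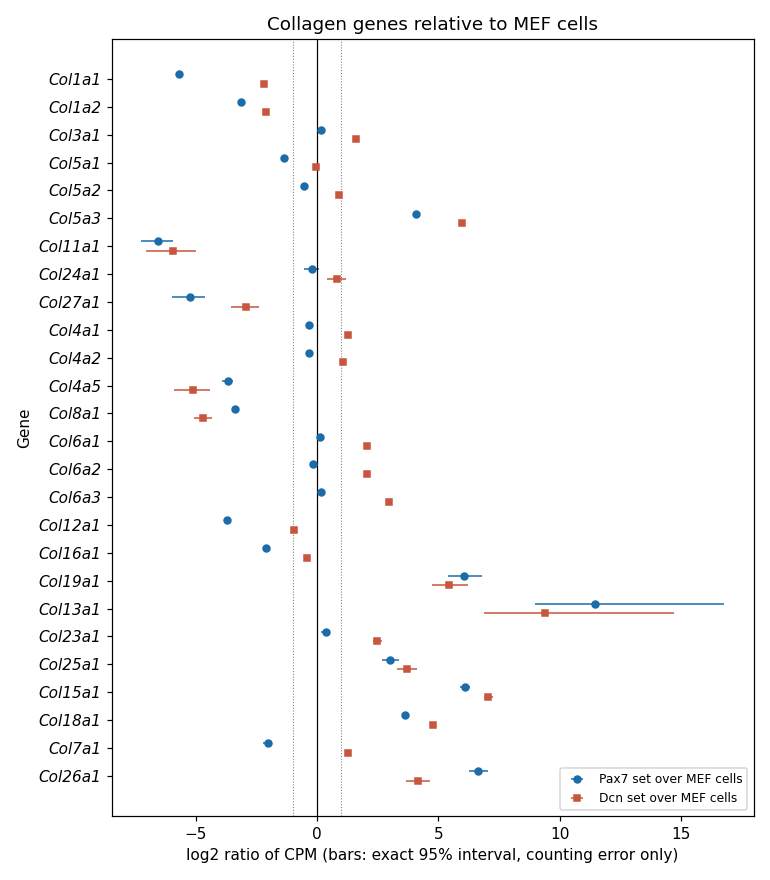
Log2 ratio of CPM to MEF cells for the Pax7 set (circles) and the Dcn set (squares), 1 row per collagen gene; bars are exact 95% intervals for counting error and dotted lines mark 2-fold. Col1a1 and Col1a2 lie left of zero in both sets, Col5a3, Col15a1 and Col18a1 right of it, and the wide bars of Col13a1 reflect 1 UMI in MEF cells.

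Toward the muscle stages most members were lower. Against the Pax7 set, 17 of 22 members (77.3%) were at least 2-fold lower in the Myog set, where 12.8% of genes were, and 19 of 22 (86.4%) in the Ckm set, where 31.7% of genes were. Only Col19a1 and Col25a1 were at least 2-fold higher, in both comparisons (9.09% of members, against 7.02% of genes in the Myog set and 11.9% in the Ckm set). The median log2 ratio of the members was -1.81 in the Myog set and -3.06 in the Ckm set, against -0.17 and -0.49 over all genes. In the Dcn set against the Pax7 set, 17 of 23 members (73.9%) were higher, against 11.7% of genes, and 3 (13.0%), Col8a1, Col13a1 and Col26a1, were lower, against 6.90%.

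Col19a1, a fibril-associated collagen of basement membrane zones, was higher in each later muscle set. Col19a1 (chr1:24261890-24587472) stood at 0.17 CPM in MEF cells (20 UMIs), 11.2 CPM in the Pax7 set, 28.8 CPM in the Myog set, 52.3 CPM in the Ckm set and 7.39 CPM in the Dcn set. Its Ckm set level was 4.65-fold above the Pax7 set (log2 ratio 2.22, 2.08 to 2.36), and over all alternatives this ratio ran from 2.10 to 2.58. A Col19a1 UMI was found at 5000 UMIs in 5.23% of the Pax7 set, 11.4% of the Myog set and 23.1% of the Ckm set. The Dcn set level lay 1.52-fold below the Pax7 set, and that log2 ratio of -0.61 became -2.80 once cells that fall in 2 sets were kept apart.

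Col25a1, a transmembrane collagen that muscle needs for its innervation, was higher in both muscle sets. Col25a1 (chr3:130131501-130599877) stood at 0.78 CPM in MEF cells, 6.32 CPM in the Pax7 set, 34.7 CPM in the Myog set, 35.1 CPM in the Ckm set and 10.2 CPM in the Dcn set. The Myog set was 5.50-fold (log2 ratio 2.46, 2.28 to 2.65) and the Ckm set 5.56-fold above the Pax7 set, and these 2 sets lay within counting error of each other. Of the thinned Col25a1 UMIs of iMPC cells, 32.5% lay in the Myog set and 34.6% in the Ckm set.

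Other membrane and orphan collagens had patterns of their own. Col13a1 (chr10:61838236-61979108), a transmembrane collagen of the neuromuscular junction, was 24.0 CPM in the Pax7 set, 18.9 CPM in the Myog set, 5.45 CPM in the Ckm set and 5.67 CPM in the Dcn set. MEF cells held 1 UMI, and the log2 ratio of all iMPC cells to MEF cells of 10.95 has an interval of 8.47 to 16.25. Col26a1 (chr5:136741759-136883209) was 0.46 CPM in MEF cells, 45.8 CPM in the Pax7 set, 37.7 CPM in the Myog set, 16.5 CPM in the Ckm set and 8.13 CPM in the Dcn set. Both were thus lower in the Dcn set than in the Pax7 set, unlike most members. Col23a1, another transmembrane chain, was 5.37 CPM in MEF cells, 6.88 CPM in the Pax7 set, 11.6 CPM in the Ckm set and 29.98 CPM in the Dcn set.

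The fibril-associated chains Col12a1 and Col16a1 were highest in MEF cells, as type I was. Col12a1, which coats type I fibrils, was 290 CPM in MEF cells, 22.3 CPM in the Pax7 set, 8.51 CPM in the Myog set, 7.93 CPM in the Ckm set and 152 CPM in the Dcn set. Col16a1 was 60.7, 14.0, 3.23, 1.19 and 45.5 CPM in the same order. Col7a1, which forms the anchoring fibrils of skin, was 24.5 CPM in MEF cells, 5.997 CPM in the Pax7 set and 59.3 CPM in the Dcn set, 9.89-fold above the Pax7 set. That log2 ratio of 3.31 ran up to 4.17 over the alternatives.

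The other 18 members stayed under 5 CPM in MEF cells, in all iMPC cells and in every set. The highest was Col14a1 with 4.44 CPM in the Dcn set. They are Col2a1, Col9a1, Col9a2, Col9a3, Col10a1 and Col11a2, which are known from cartilage, Col4a3, Col4a4 and Col4a6 of specialised basement membranes, Col6a4, Col6a5, Col6a6, Col8a2, Col14a1, Col17a1, Col20a1, Col22a1 and Col28a1. Of all 44 members, 10 had 0 UMIs in some set. In the Dcn set a count of 0 allows up to 0.246 CPM (3 counts over the set).

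RNA outside cells may bear on the lowest values. Barcodes of 1 to 100 UMIs in the iMPC library, with a median of 2 UMIs, were taken as free RNA, but their source was not tested. Their collagen level was 2629 CPM. Of the 26 named members, 15 stood higher there than in iMPC cells, and 14 of these 15 were higher in MEF than in iMPC cells. Among all 26, 17 were higher in MEF cells. If 10% of each cell's UMIs had come from RNA of this profile, Col1a1 would stand at 26.4 CPM by that route alone. That is above its 13.8 CPM in the Myog set and 12.4 CPM in the Ckm set, and below the 45.0 CPM of the Pax7 set. In barcodes of 200 to 600 UMIs Col1a1 was 46.4 CPM and all collagen 1039 CPM, and 10% of that Col1a1 level lies below both sets. With the first profile, Col1a2, Col8a1 and Col11a1 in the Ckm set were also below that level, and in the Pax7 set no named member was. At the median size of barcodes of 200 to 600 UMIs, the free share would be 0.916% of the UMIs of the Ckm set, and 0 of its members lay below the level that gives. Col19a1 at 2.34 CPM and Col25a1 at 2.17 CPM under the 10% assumption were far under their Ckm set levels. The log2 ratio of Col1a1 between the Ckm and the Pax7 set ran from -8.24 to -0.72 over the alternatives, so only its direction held.

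Genes that make, cut and link collagen were lower in the iMPC library for most steps. Of the 44 listed enzymes, chaperones and receptors, 37 had at least 5 CPM in iMPC or MEF cells: 4 were at least 2-fold higher in iMPC cells, 23 lower and 10 between, against 15.5% and 21.9% of all genes, with a median log2 ratio of -1.26. The list was written with earlier results of these data known. All 4 cross-linking oxidases that reached 5 CPM, of 5 listed, were lower, among them Lox (282 CPM in MEF and 22.6 CPM in iMPC cells), Loxl1 (96.9 and 15.1 CPM) and Loxl3 (117 and 8.28 CPM). Of the propeptide processing genes, the proteinases Bmp1 (180 and 16.6 CPM) and Tll1 (18.4 and 0.52 CPM) and the enhancer Pcolce (506 and 99.8 CPM) were lower. The chaperone of the triple helix, Serpinh1, was 1305 CPM in MEF and 538 CPM in iMPC cells, and Creb3l1, a transcription factor of the secretory pathway, was 87.5 and 8.47 CPM. In the Pax7 set against MEF cells, 4 of 37 pathway genes were higher (15.8% of all genes), 18 lower (19.9%) and 15 between. Creb3l1 was among the lower genes there and Serpinh1 was not.

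Hydroxylases differed among themselves. P4ha1, a catalytic subunit of prolyl 4-hydroxylase, was 84.8 CPM in MEF cells, 247 CPM in the Pax7 set and 449 CPM in the Dcn set, while its relative P4ha3 was 28.8, 5.61 and 4.11 CPM. Plod1, a lysyl hydroxylase, was 18.3 CPM in MEF cells, 58.6 CPM in the Pax7 set and 260 CPM in the Dcn set, 14.2-fold above MEF cells. Among receptors, the collagen integrin subunit Itga11 was 9.84 CPM in MEF and 1.02 CPM in iMPC cells and the uptake receptor Mrc2 139 and 18.7 CPM, whereas Ddr1 was 26.2 and 21.9 CPM. In the Dcn set 7 of 37 pathway genes were higher than in MEF cells, where 14.3% of all genes were, and 10 lower, against 13.4%, and Lox was at 48.0 CPM. Against the Pax7 set, 0 of 35 were higher in the Myog set (7.02% of all genes) and 19 lower (12.8%). In the Ckm set 0 of 35 were higher (11.9% of all genes) and 23 lower (31.7%). In the Dcn set 11 of 36 were higher than in the Pax7 set (11.7% of all genes) and 1 lower (6.90%).

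**Figure D5:**
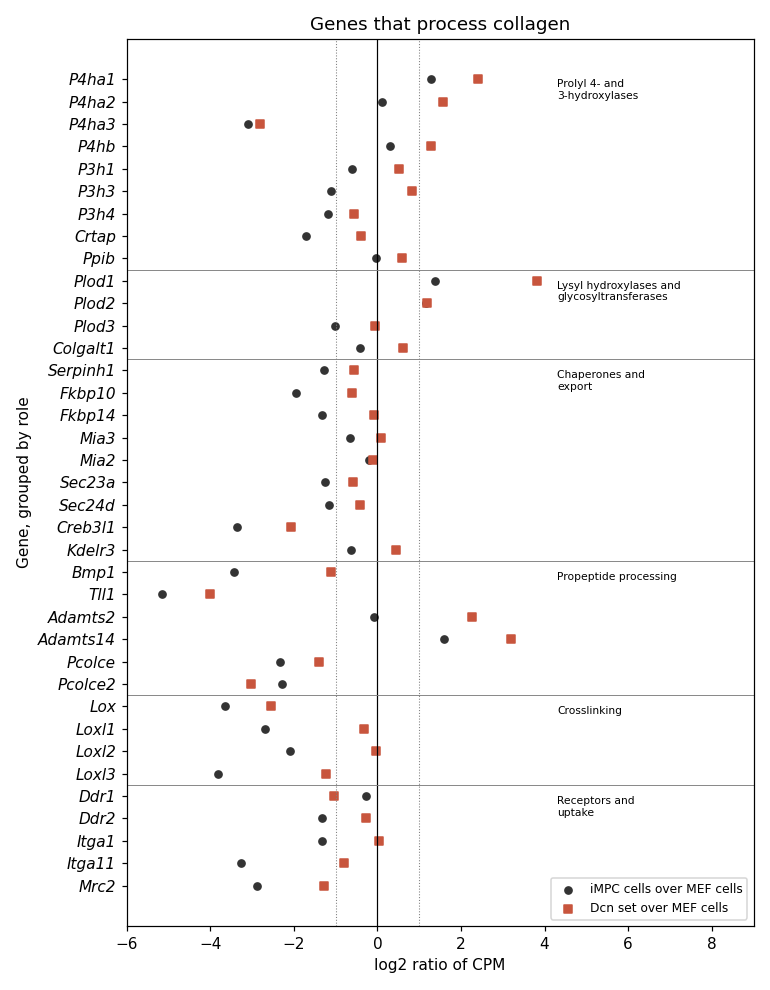
Log2 ratio of CPM to MEF cells of the 37 listed collagen-processing genes with at least 5 CPM in iMPC or MEF cells, for all iMPC cells (circles) and the Dcn set (squares), grouped by role; dotted lines mark 2-fold. The 4 cross-linking genes lie left of the 2-fold line for all iMPC cells, and P4ha1, Plod1, Plod2 and Adamts14 lie right of it.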

How the data were processed

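Per the labels' protocols, cells were trypsinised and prepared with the 10x Genomics 3′ kit v3 for about 10000 cells. The authors deposited raw UMI count matrices, made with Cell Ranger 4.0 on GRCm38.p6 per the submitters' processing notes, which also name Seurat 3.2.3. The annotation release is not given in the sources used here. The iMPC matrix lists 6794880 barcodes, uncalled, and the MEF matrix 6113, whose selection is not given there. The MEF sample's treatment label names fibroblast medium and was followed, although its protocol text repeats that of iMPC.

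The 24 genes listed only for MEF (0.209% of its UMIs) were dropped. iMPC cells needed 8036 UMIs, which is 10% of what the barcode at the 99th percentile among the 10000 largest held. UMIs were summed over the cells of a set. Ratios have exact conditional, levels exact Poisson and shares exact binomial (Clopper-Pearson) intervals at 95%. A count of 0 was set to 3 counts per set. No test was made, since each group is 1 library. A gene was counted at 5 CPM on either side and a ratio of 2. No doublets were removed in the main values, and Scrublet removal (337 iMPC cells, and the 292 highest MEF scores because it called 1) was an alternative. Members at 5 CPM in any set are named, with the 10 pathway genes of largest ratio and the first of each role. Others named were chosen after their values were seen. Members and lists were chosen with earlier results of these data known. Lists for chondrocytes, osteoblasts, tenocytes, adipocytes, epithelium, and glia and neurons summed to at most 79.6, 38.9, 26.1, 20.5, 14.6 and 71.5 CPM in any set, the satellite cell list to between 249 and 677 CPM and the committed myoblast list to between 152 and 5000 CPM. The tools were scanpy 1.11.5 for doublets, scipy 1.17.1 for intervals and numpy 2.4.6 and pandas 2.3.3 for sums under Python 3.11.15, and the counting was tested on simulated data.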

Additional observations from a re-analysis of the deposited data

Results flagged for a closer look

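Col1a1 in iMPC barcodes of 1 to 100 UMIs, which hold no called cell, stood at 264 CPM (253 to 275, exact Poisson, 2312 UMIs). The floor of 3 counts is 0.342 CPM there. These barcodes form no cell set and enter the report only as a free RNA profile, compared with cells and subtracted in alternatives. Col1a1 stood at 79.1 CPM in iMPC cells and 46.4 CPM in barcodes of 200 to 600 UMIs. The source of this RNA was not tested.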

How the results depend on the processing

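Across 24 counts of collagen and pathway genes, 354 values under alternatives stayed within 1.5 times the main count and 10 did not. For the pathway genes lower in the Myog than in the Pax7 set, 19 became 12 with a minimum of 20 CPM. For those higher in the Dcn than in the Pax7 set, 11 became 17 with stricter sets, 21 with sets kept apart and 25 at a ratio of 1.5, and the 1 lower became 2 with doublets removed, stricter sets, sets kept apart or a ratio of 1.5, and 0 with a minimum of 20 CPM. The 3 collagen genes lower in the Dcn than in the Pax7 set became 5 with a minimum of 1 CPM. Of the log2 ratios for genes, types and totals under alternatives, 2326 stayed within counting error, 1032 moved further, and 0 that had passed the size rule changed sign. For 182 shares, 17 values under alternatives were labelled the same, 529 moved and 0 reversed, so most shares depend on the settings used. Summed collagen ranged over log2 ratios of -1.64 to -1.28 for iMPC against MEF cells, -1.35 to -0.93 for the Pax7 set and 0.41 to 0.76 for the Dcn set against MEF cells, and -2.36 to -1.67, -3.67 to -2.48 and 1.51 to 2.11 for the Myog, Ckm and Dcn sets against the Pax7 set. Scaling by the median of gene ratios raised log2 ratios by between 0.00 and 0.36. Comparing the Dcn set only with MEF cells of at least 5 Dcn UMIs, and the alternatives for chain ratios, were chosen after seeing the data. The causes were not tested. Counting error limits the low members, and with 1 library a group no replicate could be left out. No paired analysis was possible because each group is 1 library.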
